A study of Mus musculus with 6 samples.

Results

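The 10 genes described here carry and move the high-energy phosphate of ATP: 4 creatine kinases (Ckm, Ckmt2, Ckb and Ckmt1), 3 adenylate kinases (Ak1, Ak3 and Ak4), 2 ADP/ATP carriers of the inner mitochondrial membrane (Slc25a4 and Slc25a5) and the creatine transporter Slc6a8. They were taken by symbol, and all 10 were present among the 15909 genes with values. RNA was sequenced from mouse left ventricles collected 4 days after surgical myocardial infarction, from 3 libraries of the PBS group and 3 of the CCN3 group. The CCN3 group received recombinant human CCN3 (a secreted matricellular protein made by cardiac fibroblasts) at 6 µg/kg by intraperitoneal injection, and the PBS group received the vehicle the same way. Both groups carried the infarct, and no uninjured heart was analysed here. The mice were adults without a named transgene, for which the methods of the study give 8 weeks of age and the C57/B6J strain in its account of CCN3 dosing. The labels and the study differ on the schedule, with injections daily for 4 days after surgery in the labels and on 3 consecutive days from the day after infarction in the text of the study, which places collection at 4 h after the last injection.

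Muscle stores high-energy phosphate as phosphocreatine. Mitochondrial creatine kinase charges creatine with ATP that the adenine nucleotide carriers export from the matrix, and cytosolic creatine kinase returns the phosphate to ADP beside the myofibrils and the calcium pumps. Adenylate kinases interconvert ATP, ADP and AMP, and each of these enzyme families has forms typical of heart and skeletal muscle and forms found in brain, fibroblasts and many other cells. The comparison asked whether RNA of the muscle and mitochondrial forms and RNA of the brain and fibroblast forms differed between the CCN3 and PBS ventricles.

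None of the 10 genes passed the test between the groups (0 of 10 at an adjusted p under 0.2 by limma, adjusted over all 15909 genes, where 1.6% of all genes passed, 0.515% higher and 1.08% lower with CCN3). The muscle forms all had lower means with CCN3, with Ckm at 0.756-fold, Slc25a4 at 0.864-fold, Ak1 at 0.871-fold and Ckmt2 with a log2 difference of -0.14. Ckm and Ak1 had an unadjusted p under 0.05, both lower, against 10.6% of all genes (6.59% lower and 4.05% higher). The brain, ubiquitous and fibroblast forms Ckb, Ckmt1 and Slc25a5 had log2 differences of 0.08, 0.22 and 0.03, and their groups overlapped. Libraries of the 2 groups did not overlap for 3 of the 10 genes (Ckm, Ak1 and Slc25a4), all lower with CCN3, against 33.3% of all genes (18.2% lower and 15.1% higher). The lowest adjusted p of any of the 10 was 0.288. Over the 10 genes the median log2 difference was -0.07, with 6 below and 4 above 0, while 50.6% of all genes were below 0.

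**Figure D1:**
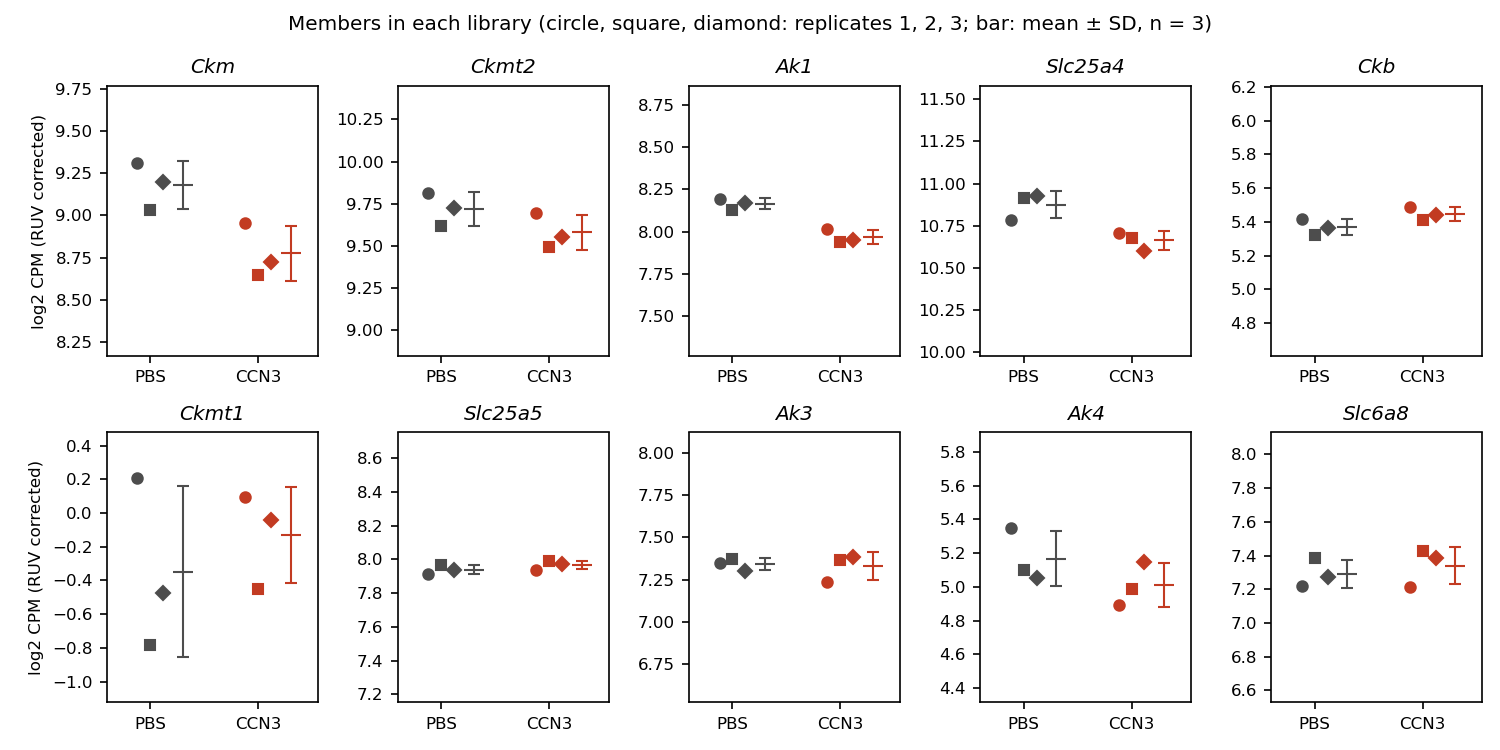
Values of the 10 genes in each of the 6 libraries, on a log2 CPM scale with the same span of values in every panel; circles, squares and diamonds are replicates 1, 2 and 3 of the PBS (grey) and CCN3 (red) groups, and the bar is the mean ± SD (n = 3). The groups are apart for Ckm, Ak1 and Slc25a4, where all CCN3 libraries lie below all PBS libraries, and overlap for the other genes.

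To set muscle and non-muscle forms side by side, the sequence around the transcription start is given for Ckm with Ckb and Slc25a4 with Slc25a5. Each of these genes had 1 annotated start. The mitochondrial pair of Ckmt2 and Ckmt1 is not shown, and Ckmt1 had 2 starts. Each window holds 250 bases before and 50 bases after the RefSeq start on GRCm38.p6, written 5′ to 3′ on the strand of the gene. Capitals mark TATAA on the gene strand, the core of a TATA box, and the E-box letters CANNTG, which basic helix-loop-helix factors bind.
Ckm, chr7:19410844-19411143, plus strand: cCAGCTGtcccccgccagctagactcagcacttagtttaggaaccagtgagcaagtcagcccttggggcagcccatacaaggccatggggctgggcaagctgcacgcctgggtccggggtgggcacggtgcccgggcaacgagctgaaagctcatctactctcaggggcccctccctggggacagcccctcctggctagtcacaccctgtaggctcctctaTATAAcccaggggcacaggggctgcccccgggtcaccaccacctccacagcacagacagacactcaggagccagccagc
Ckb, chr12:111672289-111672588, minus strand: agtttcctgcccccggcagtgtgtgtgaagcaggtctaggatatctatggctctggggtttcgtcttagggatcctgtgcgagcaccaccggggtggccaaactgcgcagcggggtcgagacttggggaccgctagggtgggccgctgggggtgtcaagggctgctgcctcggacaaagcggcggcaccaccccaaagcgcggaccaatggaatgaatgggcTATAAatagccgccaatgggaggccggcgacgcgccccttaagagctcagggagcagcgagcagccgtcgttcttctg
Slc25a4, chr8:46211013-46211312, minus strand: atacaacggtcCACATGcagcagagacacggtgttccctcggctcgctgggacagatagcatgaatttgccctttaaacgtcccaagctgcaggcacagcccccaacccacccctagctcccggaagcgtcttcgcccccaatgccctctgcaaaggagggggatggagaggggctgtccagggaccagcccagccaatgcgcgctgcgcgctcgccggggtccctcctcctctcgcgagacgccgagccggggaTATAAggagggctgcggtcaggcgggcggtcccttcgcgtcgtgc
Slc25a5, chrX:36795347-36795646, plus strand: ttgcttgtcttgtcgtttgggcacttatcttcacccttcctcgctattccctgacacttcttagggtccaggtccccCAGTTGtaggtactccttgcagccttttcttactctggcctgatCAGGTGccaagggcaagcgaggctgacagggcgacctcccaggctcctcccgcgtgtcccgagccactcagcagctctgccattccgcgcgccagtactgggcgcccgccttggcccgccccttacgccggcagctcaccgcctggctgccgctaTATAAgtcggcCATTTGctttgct
All 4 windows held TATAA, which 17.5% of the 32851 RefSeq promoter windows of this length held. The other 5 matched genes had 12 windows, of which 1 (of Ak1) held it. It began 29 bases before the annotated start in Ckm and 28 bases before it in Ckb, and it lay after the annotated start in Slc25a4 (at base 6 of the transcript) and Slc25a5 (at base 27). CANNTG, found in 72.3% of all windows, occurred once in the Ckm and Slc25a4 windows, 3 times in that of Slc25a5 and not in that of Ckb. The Ckb window also matched the letters of the MEF2 motif 29 bases before the start, over the TATAA, as 3.19% of all windows did somewhere on either strand. Of the other motifs searched, CCAAT (37.4% of windows) was in the Ckb and Slc25a4 windows, GGGCGG (35.7%) was in the windows of both carriers, and AAGGTCA (4.72%) and the CArG box (1.63%) were in none of the 4. Of the 10 genes, 9 were matched in the promoter table, and Slc6a8 was not.

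Among the muscle forms, Ckm, the cytosolic creatine kinase of heart and skeletal muscle (chr7:19138701-19157965 on GRCm39, plus strand), had the largest difference of the 10 relative to its error. Its log2 CPM was 9.31, 9.03 and 9.20 in the PBS libraries and 8.96, 8.64 and 8.72 in the CCN3 libraries. All 3 CCN3 libraries lay below the lowest PBS library, and the highest CCN3 library (replicate 1) lay close to it. The mean went from 9.18 ± 0.14 to 8.77 ± 0.16 (SD, n = 3 each), a log2 difference of -0.40 ± 0.11 (SE; 95% interval -0.68 to -0.13). On the linear scale the mean was 581 CPM with PBS and 440 CPM with CCN3. The unadjusted p of limma was 0.0108 and the adjusted p was 0.288, which placed Ckm at rank 597 of all genes by unadjusted p. Ckm did not pass with all 6 libraries, but it passed in 3 of the fits that left 1 out. Without PBS replicate 1 the log2 difference was -0.34 (limma adjusted p = 0.193), without PBS replicate 2 it was -0.48 (adjusted p = 0.168), and without CCN3 replicate 1 it was -0.49 (adjusted p = 0.133), each past the threshold. In those 3 fits 13.9%, 2.75% and 8.33% of all genes passed, against 1.6% with all 6 libraries. They kept 2 residual degrees of freedom, as many as the fit with all 6 libraries. Such fits thus take less account of the unwanted factors that the authors had removed, and their standard errors may be too small. The same limit holds for every fit below that leaves out 1 library.

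Ckmt2, the sarcomeric mitochondrial creatine kinase that sits in the intermembrane space (chr13:92001503-92025608, minus strand), had log2 CPM of 9.81, 9.62 and 9.73 with PBS. With CCN3 the values were 9.70, 9.49 and 9.56. CCN3 replicate 1 was higher than PBS replicate 2, so the groups overlapped. The log2 difference was -0.14 ± 0.09 (SE; 95% interval -0.36 to 0.08, limma adjusted p = 0.671), and it was -0.09 without PBS replicate 1.

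Ak1, the cytosolic adenylate kinase of muscle and brain (chr2:32511448-32528933, plus strand), showed the smallest spread of the muscle forms. It measured 8.20, 8.13 and 8.17 log2 CPM in the PBS libraries and 8.01, 7.94 and 7.95 in the CCN3 libraries. The groups were separated by more than the range within either of them. The means were 8.17 ± 0.03 and 7.97 ± 0.04 (SD, n = 3 each), a log2 difference of -0.20 ± 0.06 (SE; 95% interval -0.34 to -0.06, unadjusted p = 0.0132, limma adjusted p = 0.304). Without PBS replicate 1 (log2 difference -0.18, limma adjusted p = 0.134) or CCN3 replicate 1 (-0.22, adjusted p = 0.133) it passed the threshold.

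Slc25a4, the ADP/ATP carrier of heart and skeletal muscle (chr8:46656538-46664325, minus strand), was the most abundant of the 10 genes in CPM and per length of transcript. Its log2 CPM was 10.78, 10.91 and 10.93 with PBS and 10.71, 10.68 and 10.60 with CCN3. All CCN3 libraries were below all PBS libraries, with the nearest pair formed by the replicates numbered 1. The log2 difference was -0.21 ± 0.09 (SE; 95% interval -0.43 to 0.01, unadjusted p = 0.0578, limma adjusted p = 0.491). Without PBS replicate 1, the lowest PBS library, the log2 difference was -0.26 with a limma adjusted p of 0.127, past the threshold.

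The brain and ubiquitous forms of creatine kinase were less abundant per length of transcript than Ckm and Ckmt2. Ckb, the cytosolic brain form that also occurs in many non-muscle cells (chr12:111635789-111639008, minus strand), had log2 CPM of 5.42, 5.32 and 5.37 with PBS and 5.49, 5.41 and 5.44 with CCN3. The groups overlapped at 5.41 and 5.42, and the log2 difference was 0.08 ± 0.06 (SE; 95% interval -0.08 to 0.24, limma adjusted p = 0.736). Ckmt1, the ubiquitous mitochondrial form (chr2:121188195-121195706, plus strand), was near the lower end of the measured range, at 0.21, -0.78 and -0.48 log2 CPM with PBS and 0.10, -0.45 and -0.04 with CCN3. Its spread exceeded its difference of 0.22 ± 0.35 (SE; 95% interval -0.63 to 1.07, limma adjusted p = 0.883), and no difference was detectable at this level. It was 0.0014 without PBS replicate 2 and 0.50 without PBS replicate 1.

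Slc25a5, the carrier form that predominates in fibroblasts and other proliferating cells (chrX:36059223-36062462, plus strand), barely varied. Its values were 7.91, 7.96 and 7.94 log2 CPM with PBS and 7.94, 7.99 and 7.97 with CCN3. The log2 difference was 0.03 ± 0.06 (SE; 95% interval -0.11 to 0.16, limma adjusted p = 0.907). Both Slc25a5 and Ckb share sequence with other genes. Of the 31-base stretches of the Slc25a5 transcript (GENCODE M39), 62.8% also occur in transcripts of other genes, and 36.8% of those of Ckb do. The gene that shared most stretches was a processed pseudogene in both cases (Gm5560 with 38.6% for Slc25a5, Gm12892 with 35.0% for Ckb). Reads from such stretches could be divided among copies, which makes the values of Slc25a5 and Ckb uncertain. The authors quantified on the NCBI transcriptome, whose copies of these genes were not checked, so the shares do not measure that uncertainty. The share was at most 1.69% for Ckm, Ckmt2, Ckmt1, Ak1, Ak3, Slc25a4 and Slc6a8.

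Both adenylate kinases of the mitochondrial matrix had overlapping groups. Ak3, which uses GTP to phosphorylate AMP (chr19:28970669-29025525, minus strand), had log2 CPM of 7.35, 7.37 and 7.30 with PBS and 7.23, 7.37 and 7.39 with CCN3. All PBS libraries lay within the range of the CCN3 libraries, with CCN3 replicate 1 the lowest, and the log2 difference was -0.01 (95% interval -0.17 to 0.15, limma adjusted p = 0.977). Its sign turned with median centring and without PBS replicate 2 or CCN3 replicate 1 (0.0029, 0.0026 and 0.035 on the log2 scale). Ak4, a matrix form with low enzyme activity that is induced by hypoxia (chr4:101276265-101324968, plus strand), was at 5.35, 5.10 and 5.05 with PBS and 4.89, 4.99 and 5.15 with CCN3. PBS replicate 1 was the highest and CCN3 replicate 1 the lowest, and the log2 difference of -0.16 ± 0.11 (SE; 95% interval -0.43 to 0.11, limma adjusted p = 0.692) stayed within that spread. It was -0.066 without PBS replicate 1 and -0.098 without CCN3 replicate 1. In Ak4, 11.1% of the 31-base stretches are shared with the pseudogene Ak3l2-ps.

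Slc6a8, the sodium-dependent transporter that brings creatine into the cell (chrX:72716728-72726108, plus strand), had log2 CPM of 7.22, 7.38 and 7.27 with PBS. With CCN3 it had 7.21, 7.42 and 7.38. The replicates numbered 1 were the lowest in both groups, the groups overlapped, and the log2 difference was 0.05 ± 0.08 (SE; 95% interval -0.15 to 0.25, limma adjusted p = 0.885). With 1 library left out it ran from 0.0077 (without CCN3 replicate 2) to 0.113 (without CCN3 replicate 1).

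Scaled to the length of each gene's canonical GENCODE transcript, the PBS means on the log2 CPM per kb scale ran from Slc25a4 (9.93) and Ckmt2 (9.07) through Slc25a5 (7.53), Ckm (7.16), Ak1 (7.09), Ak3 (5.77), Slc6a8 (5.30), Ckb (4.81) and Ak4 (2.85) to Ckmt1 (-1.32). The mitochondrial muscle forms were thus at the top and the ubiquitous mitochondrial creatine kinase at the bottom. Neighbours in this order did not overlap among the PBS libraries, with the exception of Ckm and Ak1, whose levels also overlapped with CCN3. The place of Ckm is uncertain, because its canonical transcript is 4058 bases long and its coding transcripts run from 1199 to 6844 bases, which puts its PBS mean anywhere between 8.92 and 6.40 log2 CPM per kb. With the shorter length Ckm would stand above Slc25a5. Similar ranges hold for other genes of the set, and differences between groups do not depend on length.

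Ratios within a library compared the forms directly. The log2 ratio of Ckm to Ckb, not scaled for length, was 3.89, 3.71 and 3.83 with PBS and 3.47, 3.23 and 3.28 with CCN3. The groups did not overlap, and the ratio with CCN3 was 0.715-fold that with PBS, a log2 difference of -0.48. The exact two-sided permutation test gave p = 0.1, the smallest that 3 against 3 libraries allow, and 0.167 after Benjamini-Hochberg adjustment over 5 ratios, so this design could not reach 0.05. The authors' removal of 2 unwanted factors narrowed the spread within groups, which the test ignores, so its p-values may be too small. For single genes the groups did not overlap in 33.3% of all genes, and no such share was computed for ratios. The log2 ratio of Slc25a4 to Slc25a5 was 2.87, 2.95 and 2.99 with PBS and 2.77, 2.69 and 2.63 with CCN3, again lower in every CCN3 library (log2 difference -0.24, exact permutation p = 0.1, adjusted 0.167). The log2 ratio of Ckmt2 to Ckm, the mitochondrial to the cytosolic muscle form, was higher in every CCN3 library, at 0.50, 0.59 and 0.53 with PBS and 0.74, 0.85 and 0.83 with CCN3 (log2 difference 0.27, exact permutation p = 0.1, adjusted 0.167). The log2 ratios of Ckmt2 to Ckmt1 and of Ckm to Slc6a8 differed by -0.35 and -0.45, with overlapping groups and an exact permutation p of 0.2 each (adjusted 0.2). The first was -0.59 without PBS replicate 1 and -0.19 without PBS replicate 2.

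**Figure D2:**
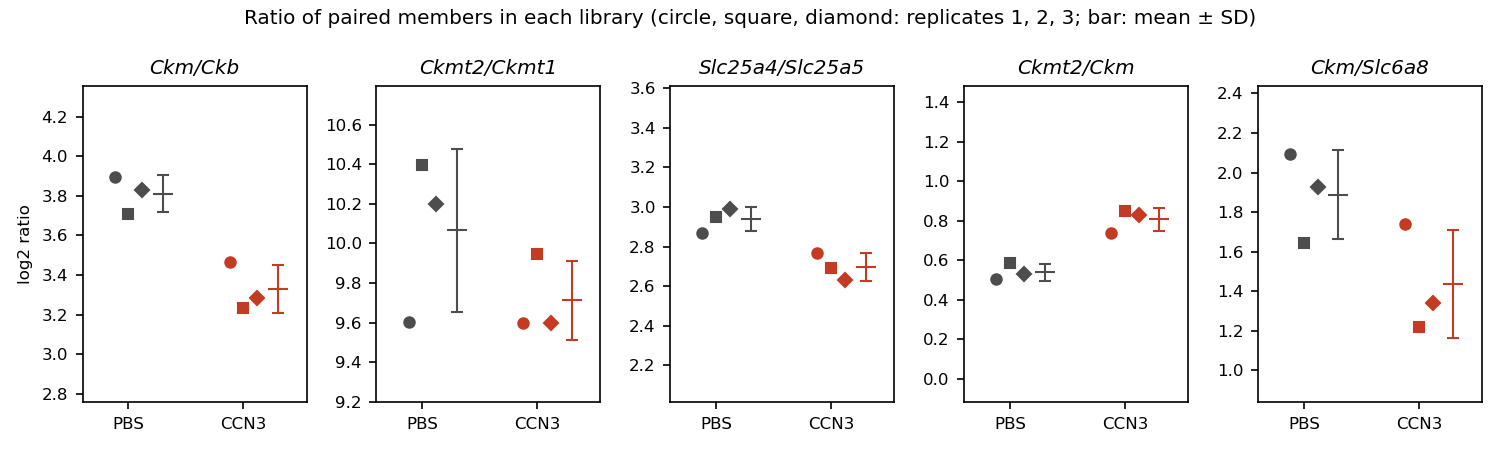
Log2 ratio of 2 genes within each library for the 5 pairs compared, on axes of equal span; symbols and colours give replicates and groups, and the bar is the mean ± SD (n = 3). The ratios Ckm/Ckb and Slc25a4/Slc25a5 are lower and Ckmt2/Ckm is higher in all CCN3 libraries, while Ckmt2/Ckmt1 and Ckm/Slc6a8 overlap. For single genes the groups did not overlap in 33.3% of all genes, and no such share was computed for ratios.

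The other genes of phosphate transfer gave no call. Of 36 listed genes, 32 were measured, and 0 of 32 passed by limma (against 1.6% of all genes), with 6 at an unadjusted p under 0.05 (4 higher and 2 lower, against 4.05% of all genes higher and 6.59% lower), 15 log2 differences above 0 and 17 below, and a median of -0.001. The nearest to the threshold was Prkag2, a regulatory subunit of the AMP-activated protein kinase that senses the AMP made by adenylate kinase, at 5.49, 5.42 and 5.41 log2 CPM with PBS and 5.68, 5.71 and 5.75 with CCN3. All 3 CCN3 libraries were above all PBS libraries (log2 difference 0.28 ± 0.06 SE, limma adjusted p = 0.207). It passed without PBS replicate 1 (adjusted p = 0.0700), without PBS replicate 2 (0.184) and without CCN3 replicate 1 (0.123), with log2 differences of 0.30, 0.27 and 0.29. The subunit gene Prkab2 had a log2 difference of 0.28 with overlapping groups (limma adjusted p = 0.442). Of the 7 subunit genes, 5 had log2 differences above 0 and 2 below. The lower ones were Prkab1 at -0.18 (0.454), whose groups did not overlap, and Prkag1 at -0.15 (0.546).

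Around the AMP pool, Adk, which turns adenosine into AMP, had a log2 difference of -0.19 and Ampd3, an AMP deaminase, one of 0.18 (limma adjusted p of 0.339 and 0.365), and their groups did not overlap. Among the carriers, Slc25a25, a calcium-regulated ATP-magnesium/phosphate carrier, had a log2 difference of 0.33 (limma adjusted p = 0.365), and Slc25a42, which carries coenzyme A, one of -0.16 (0.577). The outer membrane channels Vdac1 and Vdac3, through which these nucleotides leave the mitochondrion, had log2 differences of -0.07 and -0.08 (0.761 and 0.713). The remaining channel of that list, Vdac2, went the other way, at 0.05 (0.808). In the adenylate kinase list Ak5 had a log2 difference of 0.56 with overlapping groups (limma adjusted p = 0.554). Of the genes for making and exporting creatine, Slc16a12 (a creatine exporter) had -0.27 and Gamt (the last enzyme of creatine synthesis) 0.17 on the log2 scale (0.603 and 0.702). The nucleoside diphosphate kinases Nme2 and Nme4 had -0.13 and -0.20 (0.622 and 0.753).

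**Figure D3:**
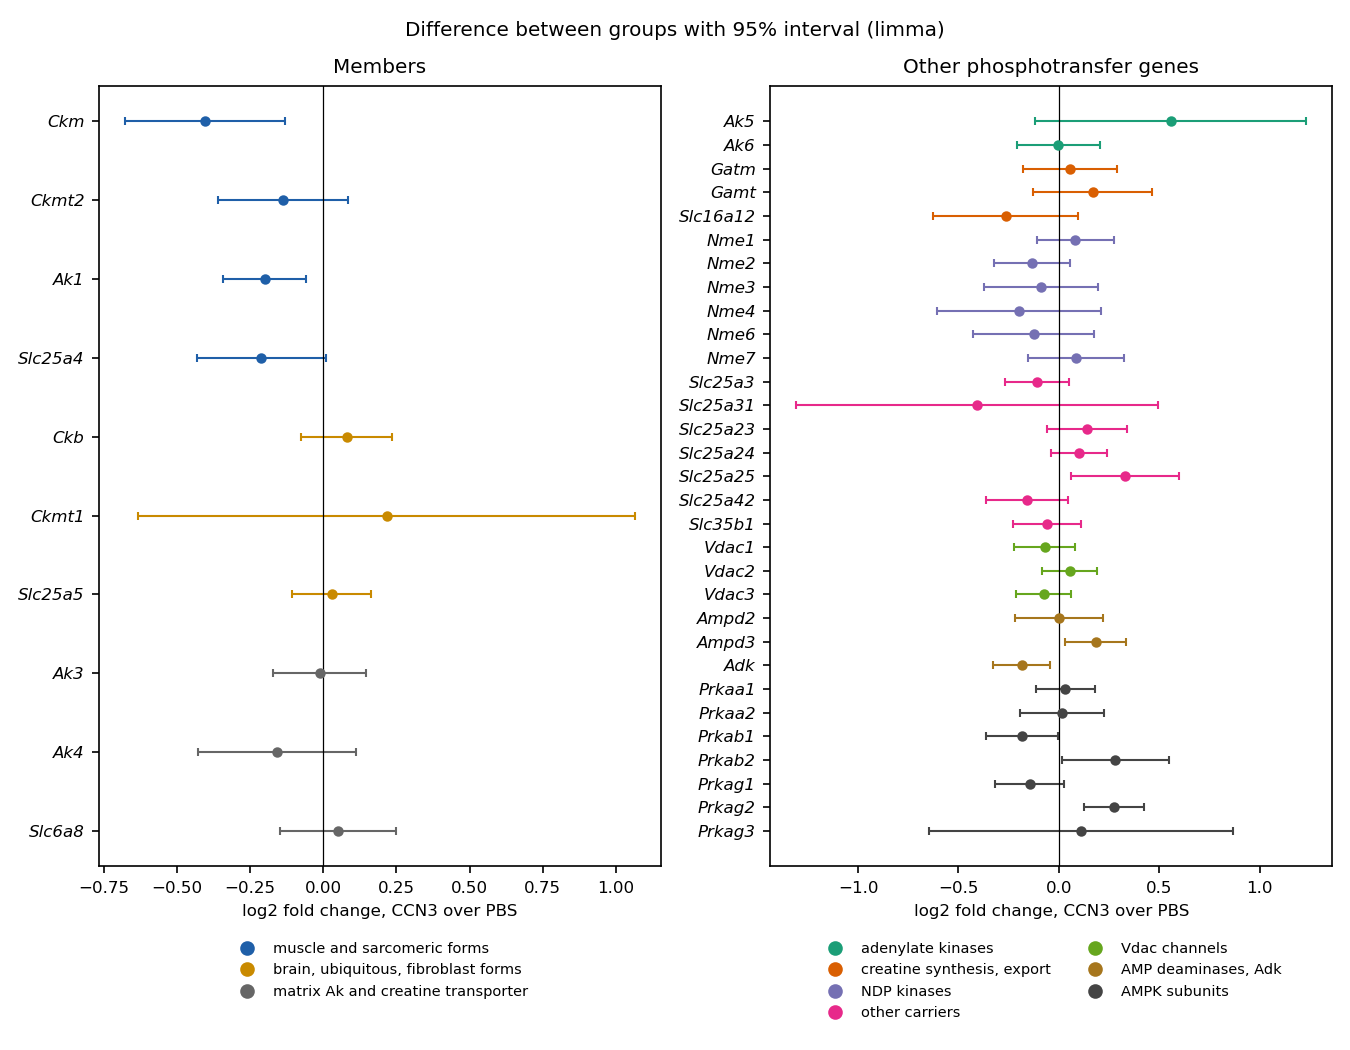
Log2 fold change of CCN3 over PBS with its 95% interval (limma) for the 10 genes (left, coloured by muscle, non-muscle and other forms) and for other measured genes of phosphate transfer (right, coloured by list). The intervals of Ckm and Ak1 lie below 0 on the left, 4 intervals on the right lie above 0 and 2 below, and none of these genes passed after adjustment.

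The muscle forms are made mostly by cardiomyocytes, so their values were set beside markers of that cell type. All 12 cardiomyocyte markers were measured, led by Myh6, Atp2a2 and Ttn, and their summed level was 45040 to 52580 CPM in the PBS libraries and 42209 to 45554 CPM in the CCN3 libraries. Of the 12, Tnni3 (cardiac troponin I) fell with CCN3 (log2 difference -0.44, limma adjusted p = 0.177, but 0.244 without PBS replicate 3 and 0.211 without CCN3 replicate 3), 11 did not pass, and the median log2 difference was -0.17. The log2 differences were above 0 for 5 markers and below 0 for 7, so the mean of the 12 combines genes of both directions. Relative to the mean log2 CPM of the 12 markers, the difference between groups was -0.28 for Ckm, -0.09 for Slc25a4, -0.08 for Ak1 and -0.01 for Ckmt2. The part of these markers in the differences was not tested, and in such tissue RNA fewer cells of a type cannot be told apart from less RNA per cell.

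**Figure D4:**
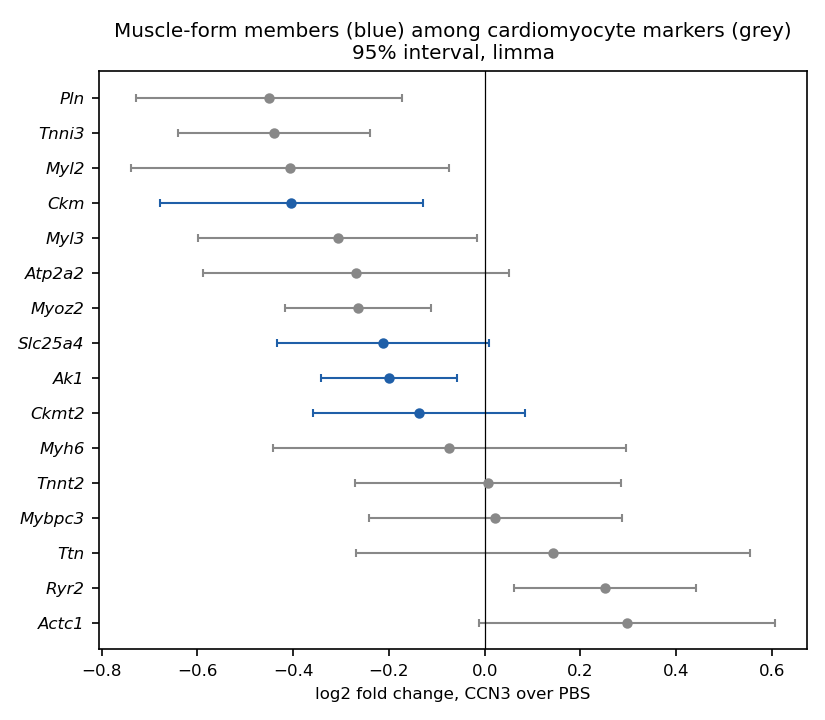
Log2 fold change of CCN3 over PBS with its 95% interval (limma) for the 4 muscle-form genes (blue) among the 12 cardiomyocyte markers (grey), ordered by fold change. The markers run from -0.45 to 0.30, and the muscle forms lie within that range, Ckm at -0.40 and Ckmt2 at -0.14.

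Skeletal muscle, which also expresses Ckm, Ckmt2, Ak1 and Slc25a4, was checked with 9 markers, of which 6 were measured, led by Acta1, Myl1 and Tnnt3. Acta1 (skeletal actin, also expressed in stressed heart) rose with CCN3 (log2 difference 1.12, limma adjusted p = 0.192, but 0.293 without PBS replicate 3 and 0.260 without CCN3 replicate 3), and all 6 had log2 differences above 0. Their summed level was 124 to 215 CPM with PBS and 258 to 389 CPM with CCN3. Acta1 made up most of the sum in every library, and the part of skeletal muscle in the differences was not tested. The fibroblast list (led by Col1a2, Col1a1 and Postn), which could carry Slc25a5 and Ckb, had 0 of 8 markers past the test and summed levels of 10658 to 13068 CPM with PBS and 11757 to 13001 CPM with CCN3. In the mural cell list (led by Rgs5, Acta2 and Tagln) Kcnj8 fell (log2 difference -0.54, limma adjusted p = 0.119). Of the 8 mural markers, 4 had higher and 4 had lower means with CCN3, with a median log2 difference of 0.02. The mural sums were 1542 to 1865 CPM with PBS and 1338 to 1467 CPM with CCN3. The endothelial (Cdh5, Pecam1, Kdr), macrophage (Lyz2, Mrc1, C1qa), neutrophil (Csf3r, S100a9, S100a8), adipocyte (Cfd, Adipoq, Plin1) and lymphocyte (Ms4a1, Cd79a) lists had no marker past the test. PBS replicate 1, without which several genes above passed, had the highest adipocyte sum (101 CPM, against 28.3 to 83.9 CPM in the other libraries). It was also the highest library in the cardiomyocyte, fibroblast, mural cell and macrophage sums and in total CPM (1031634).

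The genes whose values were most like those of Ckm over the 6 libraries were Odr4, Prpf4, Eif4e, Mlip and Kitl, with Pearson correlations from 0.9997 to 0.99999. Mlip encodes a lamin-interacting protein of muscle. None of these 5 passed the test, and the log2 differences ran from -0.17 (Eif4e) to -0.04 (Odr4). In all, 87 of 13414 genes had a correlation with Ckm above 0.99, in values whose processing left 2 of the 4 dimensions in which libraries can differ within groups.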

How the data were processed

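Left ventricles of infarcted mice were measured by stranded mRNA sequencing, 3 PBS and 3 CCN3 libraries, grouped by the labels. The labels do not say that each library came from a separate animal, and p-values then cover only the spread between these libraries. The authors quantified transcripts of GRCm39 with Salmon 1.4.0, corrected the data for 2 unwanted factors by RUV (removal of unwanted variation) and deposited log2 CPM values. The low-count filter and prior count are not given in the sources used here, and depth per library is unknown. Log2 CPM sums, once made linear, were 1001644 to 1031634 CPM. The authors also deposited fold changes and p-values of their own comparison, which were not used.

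The removal left 2 of the 4 dimensions within groups. Its 2 empty directions (singular value under 1e-06 of the largest) entered the model with treatment in limma 3.58.1 (R 4.3.3; mean-variance trend, two-sided, Benjamini-Hochberg over 15909 genes, adjusted p under 0.2, the level of the study, 2 residual and 4.47 prior degrees of freedom). In all 82 genes rose and 172 fell. These directions are at right angles to treatment, so any overlap of the removed factors with treatment is not in the standard errors, which may be too small. Ratios were compared by exact permutation, which takes no account of the removed dimensions, so its p-values may also be too small.

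The 10 genes, the lists and the tests were chosen with earlier results of these data known. Named beside the 10 were passing list genes, the 2 genes with the smallest unadjusted p in each phosphate transfer list, the 3 most abundant of each marker list and the 5 genes most correlated with Ckm, and genes that this rule selects but the text leaves out are not reported here. Prkab1, Prkag1 and Vdac2 were named as well, to give the genes of their lists that went the other way. The closing section also names list genes whose sign turned in an alternative. The alternatives were no trend, treatment alone, median centring, a mean log2 CPM of at least 1, an added pseudocount of 1, a replicate block and leaving out each library. Reading them for the marker genes that passed was added after seeing the data. The code was tested on simulated data. Positions and transcript lengths are from GENCODE M39 and promoters from RefSeq on GRCm38.p6. Motifs were searched on both strands, with TATAA searched on the strand of the gene only.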

Additional observations from a re-analysis of the deposited data

How the results depend on the processing

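Of the 10 genes, 9 kept their direction in every alternative run for them. Ckmt1 had no value under the level filter, and it came close to 0 without PBS replicate 2 (0.0014). Ak3 was 0.0029 (log2 difference) with libraries centred on the median and ran from -0.041 to 0.035 with 1 library left out. The 5 ratios kept their direction in all 8 of their alternatives. Members past the threshold, 0 in the fit reported, numbered 3 with treatment alone (where 30% of all genes passed) and 0 to 3 with 1 library left out, and 0 with no trend, median centring, the level filter or the pseudocount. For the other genes of phosphate transfer the counts were 14 with treatment alone, 1 (Prkag2) with the level filter (2.03% of all genes), and 0 to 9 with 1 library left out. Over all genes 0 rose and 1 fell with no trend, 2138 rose and 2633 fell with treatment alone, 104 fell with median centring (70 rose), and 22 to 951 rose and 28 to 1268 fell with 1 library left out. Treatment alone ignores the removed dimensions, and its standard errors are then too small. Fits with 1 library left out take account of fewer removed dimensions than the full fit, so their standard errors may also be too small. Deviations of same-numbered libraries had correlations of 0.13, 0.97 and -0.98, and those of unlike numbers ran from -0.74 to 0.63. The removal of unwanted factors left fewer dimensions for such deviations and could have taken out an effect shared by a pair. The correlations thus cannot show whether the replicate numbers paired the samples. With the replicate block 5 members, 17 other genes, and 2686 higher and 3246 lower genes passed (37.3% of all). Ratios under the pairing had a smallest p of 0.25.

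Other reversals were in genes near 0, with the log2 difference given over the fits that leave out 1 library. Ak6 ran from -0.054 to 0.032 and was 0.013 with median centring, and Ampd2 ran from -0.031 to 0.058 and was 0.015 with median centring. Gatm ran from -0.031 to 0.106, Prkaa2 from -0.035 to 0.095 and Prkag3 from -0.047 to 0.391. The causes were not tested. Of the marker genes, read after seeing the data, Tnni3, Acta1 and Kcnj8 kept their direction in every alternative and lost their calls with no trend, and Acta1 also did so with median centring. Depth is unknown, and for genes as low as Ckmt1 the interval spans -0.63 to 1.07.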
